A study of Saccharomyces cerevisiae with 24 samples.

Results

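The genes described here belong to the mating system of the yeast Saccharomyces cerevisiae: MFA1 (YDR461W), MFA2 (YNL145W), STE6 (YKL209C), STE2 (YFL026W), BAR1 (YIL015W), AGA1 (YNR044W), AGA2 (YGL032C) and HO (YDL227C). These 8 genes were taken by name from the 6256 genes that had a probe on the array, and all 8 were bright enough to be among the 5641 probes tested. They were chosen by name and selected on their array levels over the 6 groups of strain and medium, which were already known. Their levels and differences are therefore given as a description with a standard error and without a test. Where any of the 8 is said below to meet the criteria used for all probes, or to be called, this is also description. It places the gene beside all probes and is no test of that gene, whether between media or between strains. Tests are used for other genes of mating and of HO control. The lists of those genes were also made with earlier results of these data known, which their adjusted p-values do not take into account.

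Transcripts were measured on 24 single-colour arrays, 4 biological replicates for each combination of 3 strains and 2 media. The strains were WT (JYL03), sef1, in which the gene of the transcription factor Sef1 was deleted with the NatMX4 marker, and SEF1-VP16, whose own SEF1 gene encodes a protein carrying the VP16 activation domain and keeps an FRT site. All were W303 derivatives of mating type a, a point that comes from the strain list of the study and not from the sample labels, and all, WT included, carried mutant alleles of HIS3, TRP1, URA3, ADE2, LEU2 and CAN1. Each mutant was a single named isolate. Overnight cultures in YPD, a rich glucose medium for fermentation, were brought to 0.2 OD600 per ml in fresh YPD or in YPGly, where glycerol is the carbon source and cells respire, and were grown for 5.5 h at 30 °C with added adenine and tryptophan. A level below is the log2 intensity of a probe minus the 75th percentile of its array, and a difference is on the same log2 scale.

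Haploid yeast cells are of mating type a or alpha, and each type finds its partner by a peptide pheromone. Cells of type a secrete a-factor, sense the alpha-factor of the partner by a receptor, degrade surplus alpha-factor outside the cell, and stick to the partner by an agglutinin on the cell wall. The genes that only a cells need are repressed in alpha cells and in diploids, and in a cells they are transcribed under Mcm1 without pheromone, while pheromone raises many of them further. HO encodes the endonuclease that starts mating type switching by cutting the MAT locus. Its promoter is active in haploid mother cells in late G1 phase, and it depends on Swi5, on the chromatin complexes SWI/SNF and SAGA, and on SBF, the factor made of Swi4 and Swi6 that also drives the G1 cyclin genes.

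The arrays lay on 3 slides. The YPD arrays of WT and sef1 shared a slide, the YPD arrays of SEF1-VP16 shared one with the YPGly arrays of WT, and the YPGly arrays of sef1 and SEF1-VP16 shared the last, each group filling a row. Within a slide, therefore, sef1 could be set against WT in YPD, and the VP16 strain against sef1 in YPGly. Every other comparison crossed slides, and for a difference between strains that changed with the medium, the medium and the slide cannot be told apart. The 75th percentile ran from 5320 to 16182 intensity units and the share of probes well above background from 90.9% to 97.5%. SEF1 was well above background on all 16 arrays of WT and SEF1-VP16 and on none of the 8 sef1 arrays. Compared to WT its level there was lower at least 8.14-fold under YPD conditions and at least 32.9-fold under YPGly conditions.

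The mating type was checked with the genes of each type. All 8 genes described here, of which HO and AGA1 are not genes of a cells alone, were well above background on all 24 arrays. Among the genes of alpha cells, MF(ALPHA)1 and MF(ALPHA)2, which encode the alpha-factor precursors, were at background on most arrays. MF(ALPHA)2 was well above background on 1 array in each of 3 groups. MF(ALPHA)1 was above it on 8 arrays, among them all 4 of sef1 in YPGly, with a mean level of −7.50 there against −8.31 in WT in YPGly. STE3, the a-factor receptor gene of alpha cells, and SAG1, which encodes the alpha-agglutinin, were above background on all 24 arrays, STE3 with group means between −6.43 and −5.94 and SAG1 between −4.54 and −3.22. The group means of AGA2, a gene of a cells, lay between −4.29 and −3.50, within the range of SAG1. Whether other cells or other transcripts contributed to the probes of STE3 and SAG1 was not tested. In such bulk samples fewer expressing cells and less RNA per cell cannot be told apart.

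The genes of a-factor itself were higher in YPD than in YPGly in all 3 strains, by 3.55-fold to 7.93-fold, with no overlap between the media. MFA1 and MFA2 encode near-equivalent precursors that are prenylated, cut and methylated into the mature peptide. For MFA1 the levels in YPD were −0.42, −0.44, −0.33 and −0.72 in WT, −0.73, −0.64, −0.80 and −0.81 in sef1, and −0.46, −0.33, −0.40 and −0.28 in SEF1-VP16. In YPGly they were −3.07, −3.25, −3.05 and −3.19 in WT, −2.60, −2.71, −2.86 and −2.81 in sef1, and −3.12, −3.47, −3.49 and −3.33 in SEF1-VP16. The highest array in YPGly thus lay far below the lowest in YPD. In YPD the order was SEF1-VP16, WT and sef1, and neighbours in that order overlapped. In YPGly sef1 stood above WT without overlap, and WT overlapped with SEF1-VP16. The medium difference, YPGly minus YPD, was −2.66 ± 0.09 in WT (limma standard error, n = 4 against 4), −1.99 ± 0.07 in sef1 and −2.99 ± 0.08 in SEF1-VP16.

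MFA2 behaved much like MFA1 between the media. Its levels in YPD were −0.54, −0.44, −0.73 and −0.40 in WT, −0.43, −0.63, −0.65 and −0.71 in sef1, and −0.52, −0.44, −0.60 and −0.40 in SEF1-VP16, and the 3 strains overlapped. In YPGly they were −2.68, −2.93, −2.84 and −2.93 in WT, −2.42, −2.29, −2.51 and −2.51 in sef1, and −3.32, −3.28, −3.46 and −3.36 in SEF1-VP16. The 3 strains formed separate ranges there, with sef1 highest and SEF1-VP16 lowest. The medium difference was −2.32 ± 0.09 in WT, −1.83 ± 0.07 in sef1 and −2.87 ± 0.06 in SEF1-VP16. STE6, the membrane transporter that exports a-factor, had the smallest medium difference of the 8 genes in WT and sef1, and the smallest but for HO in SEF1-VP16. Its levels in YPD lay between 0.36 and 0.57 over all 12 arrays. In YPGly WT had 0.29, −0.07, 0.25 and 0.07, sef1 had 0.26, 0.22, 0.50 and 0.46, and SEF1-VP16 had −0.16, −0.12, −0.15 and −0.25. The range of sef1 in YPGly overlapped with that in YPD, while SEF1-VP16 in YPGly lay below all other groups. The medium difference of STE6 was −0.36 ± 0.09 in WT, −0.13 ± 0.08 in sef1 and −0.65 ± 0.05 in SEF1-VP16, or 1.28-fold, 1.09-fold and 1.57-fold.

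**Figure D1:**
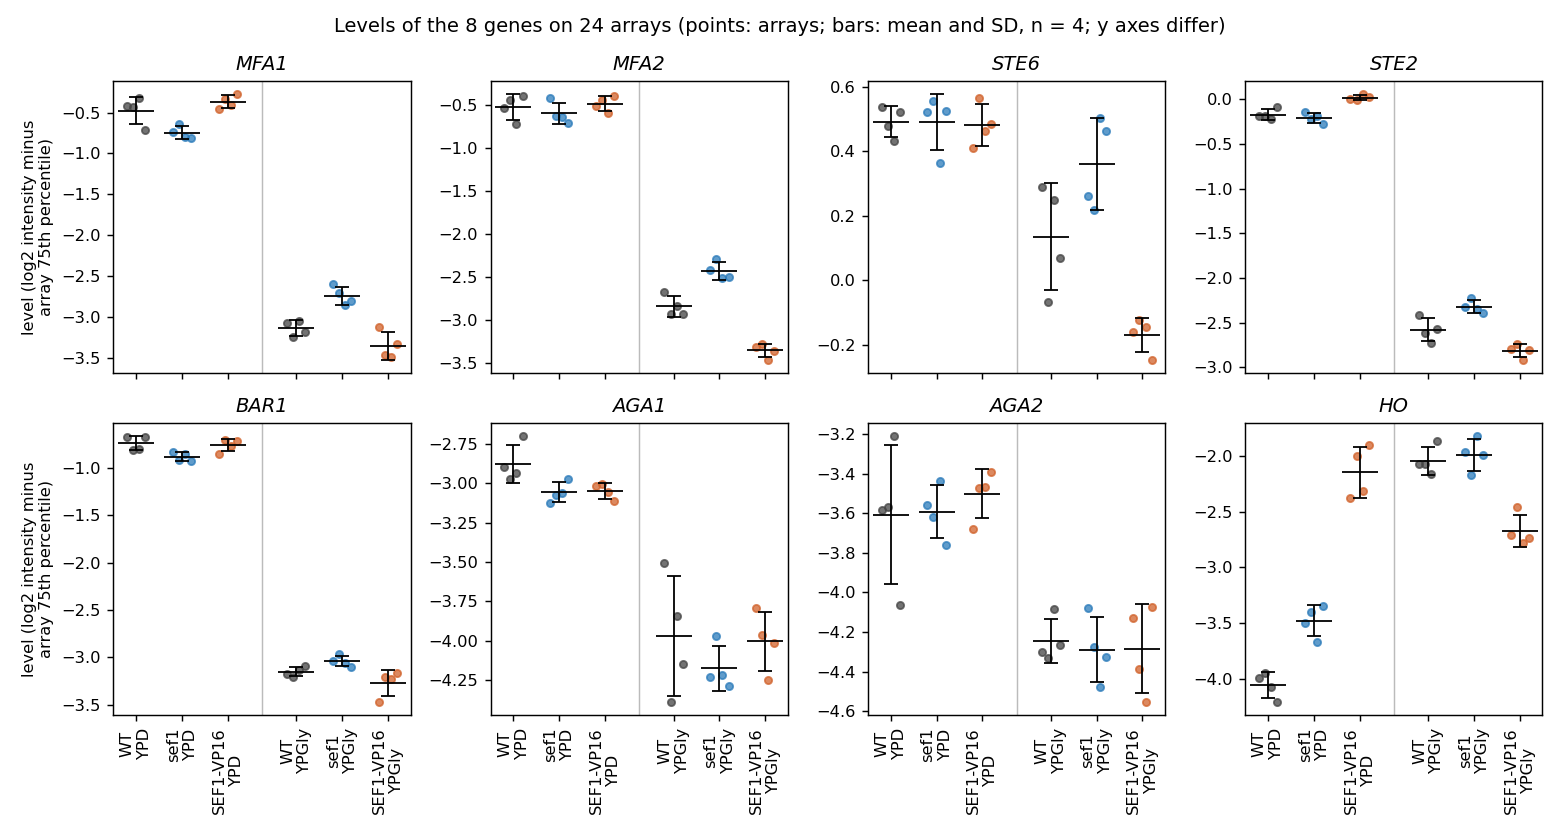
Levels of the 8 genes (y axis, log2 intensity minus the 75th percentile of the array, scaled to each gene) on each of the 24 arrays by strain and medium (x axis), with points for arrays and lines for the mean and SD of 4 arrays. Except for HO in WT and sef1, and for STE6 in sef1, each strain lay lower in YPGly than in YPD without overlap, and HO in WT has means of −4.05 in YPD and −2.05 in YPGly.

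The receptor gene and the protease gene for alpha-factor showed the same split between the media. STE2 encodes the receptor by which an a cell senses alpha-factor. Its levels in YPD were −0.19, −0.19, −0.22 and −0.09 in WT, −0.14, −0.22, −0.18 and −0.27 in sef1, and 0.0066, −0.0044, 0.06 and 0.02 in SEF1-VP16. In YPGly they were −2.41, −2.61, −2.72 and −2.56 in WT, −2.32, −2.23, −2.34 and −2.39 in sef1, and −2.80, −2.74, −2.91 and −2.81 in SEF1-VP16. SEF1-VP16 was therefore the highest strain in YPD and the lowest in YPGly, in neither case overlapping with its neighbour, and sef1 was highest in YPGly. The medium difference was −2.41 ± 0.08 in WT, −2.12 ± 0.05 in sef1 and −2.83 ± 0.05 in SEF1-VP16. BAR1, the secreted protease that degrades alpha-factor, had levels between −0.93 and −0.67 on the 12 arrays in YPD and between −3.47 and −2.96 on the 12 arrays in YPGly. Its medium difference was −2.41 ± 0.07 in WT, −2.16 ± 0.05 in sef1 and −2.51 ± 0.07 in SEF1-VP16. All neighbours in the order of BAR1 levels within a medium overlapped, whereas WT and sef1 in YPD, and sef1 and SEF1-VP16 in YPGly, did not overlap.

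The agglutinin genes were lower in YPGly in all 3 strains, without overlap between the media within a strain. AGA1 encodes the subunit that anchors the a-agglutinin to the wall, is not restricted to a cells as strictly as AGA2, and had levels from −3.12 to −2.70 in YPD and from −4.39 to −3.50 in YPGly. The spread was largest for WT in YPGly, at −3.50, −4.39, −3.84 and −4.15. Its medium difference was −1.09 ± 0.16 in WT, −1.12 ± 0.07 in sef1 and −0.96 ± 0.09 in SEF1-VP16. AGA2 encodes the subunit that binds the partner cell. Its levels were −3.58, −3.57, −3.21 and −4.06 in WT, between −3.76 and −3.44 in sef1 and between −3.68 and −3.39 in SEF1-VP16 in YPD, and from −4.55 to −4.07 over all strains in YPGly. The lowest array in YPD, WT replicate 4, thus lay just above the highest in YPGly. The medium difference of AGA2 was −0.64 ± 0.15 in WT, −0.70 ± 0.09 in sef1 and −0.78 ± 0.11 in SEF1-VP16, and in WT it was −0.51 without replicate 3 in YPD, which is under the 1.5-fold minimum. The 3 strains did not separate for AGA2 in either medium.

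HO took another course. Its levels in YPD were −3.99, −3.95, −4.07 and −4.20 in WT, −3.50, −3.40, −3.67 and −3.35 in sef1, and −2.37, −2.004, −2.31 and −1.90 in SEF1-VP16. In YPGly they were −2.08, −2.07, −2.17 and −1.87 in WT, −1.96, −2.18, −1.83 and −1.99 in sef1, and −2.71, −2.46, −2.79 and −2.73 in SEF1-VP16. The 3 strains were fully separate in YPD, with WT lowest and SEF1-VP16 highest, whereas in YPGly WT and sef1 overlapped and SEF1-VP16 lay below both. HO was higher in YPGly by 2.01 ± 0.09 in WT and by 1.49 ± 0.09 in sef1, or 4.02-fold and 2.80-fold, and it was lower in YPGly by −0.52 ± 0.11 in SEF1-VP16. That last value met the criteria used for all probes, given further on, without replicate 2 in YPGly (−0.59) or replicate 1 in YPD (−0.60). Over the 6 groups the order ran from sef1 in YPGly (−1.99 ± 0.14, SD) through WT in YPGly (−2.05 ± 0.12) and SEF1-VP16 in YPD (−2.15 ± 0.23), which overlapped in turn, to SEF1-VP16 in YPGly (−2.67 ± 0.14), sef1 in YPD (−3.48 ± 0.14) and WT in YPD (−4.05 ± 0.11), each of which stood apart.

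**Figure D2:**
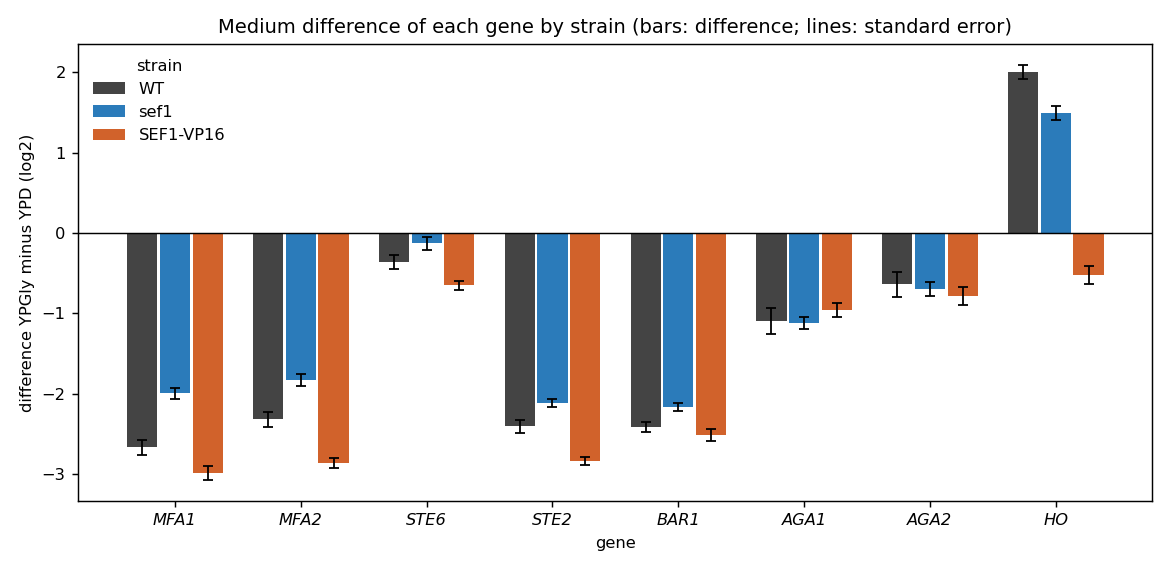
Difference between YPGly and YPD (y axis, log2) for each of the 8 genes (x axis) in the strains WT, sef1 and SEF1-VP16, with bars for the difference and lines for its standard error (4 arrays against 4). The a-cell genes and AGA1 are below 0 in every strain, from −0.13 for STE6 in sef1 to −2.99 for MFA1 in SEF1-VP16, and HO is at 2.01, 1.49 and −0.52.

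Counted by the criteria used for all probes, an adjusted p below 0.05 and a change of 1.5-fold, 7 of the 8 genes were called between the media in WT (all but STE6), where 39.2% of all tested probes were called. In sef1 the same 7 were called, against 38.8% of all probes, and in SEF1-VP16 the 7 genes other than HO were called, against 41.4%. The groups did not overlap for 8, 7 and 8 of the 8 genes in WT, sef1 and SEF1-VP16, with 66.4%, 74.6% and 74.8% of all probes. The genes were chosen with these levels known, so nothing is read from these counts. The same holds for the calls and counts of the 8 genes between strains below. The median difference of the 8 genes was −1.70, −1.47 and −1.73 in the 3 strains, and that of all tested probes was 0.01, −0.02 and −0.05. Per the study's methods the cultures of the 2 media were also harvested at different densities, whose part in the medium differences was not tested.

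The slide shared by the YPD arrays of SEF1-VP16 and the YPGly arrays of WT allows both media to be seen on 1 slide, although the strain differs as well. On it MFA1 had a mean of −0.37 in SEF1-VP16 in YPD and of −3.14 in WT in YPGly, MFA2 had −0.49 and −2.85, and STE2 had 0.02 and −2.58. BAR1 had −0.76 and −3.15 there. These 4 genes were lower without overlap in the YPGly group of this slide. The 2 groups also differed in strain and in slide row, and the part of each was not tested. STE6 had 0.48 and 0.13 there, without overlap. AGA1 stood at −3.05 and −3.97 and AGA2 at −3.50 and −4.25 on the same slide, also without overlap. HO was not split there, with −2.15 in SEF1-VP16 in YPD and −2.05 in WT in YPGly and overlapping arrays. By slide, the group means of HO were −4.05 and −3.48 on the first, −2.15 and −2.05 on the next and −1.99 and −2.67 on the last.

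The strains were compared to ask which transcripts depend on Sef1 and which respond to its activated form. In YPD, on 1 slide, all 8 genes stayed under the criteria in sef1 against WT, where 0.674% of all tested probes were called, and 2 of them, HO and BAR1, did not overlap between the strains, a pattern shown by 19.1% of all probes. HO came nearest to a call, being higher in sef1 by 0.57 ± 0.08, which at 1.49-fold was just under the minimum. Without replicate 3 of sef1, or without replicate 1 or 2 of WT, the HO difference was 0.64, 0.60 or 0.61 and passed the criteria. The a-cell genes and AGA1 differed little in this comparison. MFA1 was at −0.27 ± 0.08, BAR1 at −0.14 ± 0.05 and AGA1 at −0.18 ± 0.07. MFA2 was at −0.07 ± 0.09 and STE2 at −0.03 ± 0.05. STE6 and AGA2 were at −0.0014 ± 0.06 and 0.01 ± 0.15.

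In YPGly, across slides, sef1 was higher than WT for the pheromone genes by small amounts. MFA1 was higher by 0.40 ± 0.08, MFA2 by 0.41 ± 0.08 and STE2 by 0.26 ± 0.08, each without overlap between the strains (3 of the 8 genes, against 14% of all probes) and each under the minimum. All 8 genes were again under the criteria, which 0.798% of all probes met. STE6 differed by 0.23 ± 0.10, BAR1 by 0.11 ± 0.06 and HO by 0.06 ± 0.09, with overlapping arrays. AGA1 (−0.21 ± 0.16) and AGA2 (−0.04 ± 0.09) had the other sign, with overlapping arrays.

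Between SEF1-VP16 and WT, HO had the largest difference of the 8 genes in both media. In YPD HO was higher in SEF1-VP16 by 1.90 ± 0.11, or 3.74-fold, and in YPGly it was lower by −0.63 ± 0.09, or 1.54-fold. HO alone of the 8 genes was called in these comparisons, against 9.15% and 1.1% of all probes, and 3 and 4 of the 8 did not overlap, against 45.1% and 10.7%. Its call in YPGly was lost with the normexp background correction (−0.57), with the methods' t-test and without replicate 4 of WT (−0.57). In YPD STE2 (0.19 ± 0.05) and AGA1 (−0.17 ± 0.07) did not overlap between the 2 strains either. The a-cell genes other than STE2 overlapped. They were at 0.11 ± 0.09 for MFA1, 0.04 ± 0.08 for MFA2, −0.02 ± 0.06 for BAR1, −0.01 ± 0.05 for STE6 and 0.11 ± 0.15 for AGA2. In YPGly MFA2 (−0.51 ± 0.08), STE6 (−0.30 ± 0.09) and STE2 (−0.23 ± 0.08) were lower in SEF1-VP16 without overlap and below the minimum, and MFA1 was at −0.21 ± 0.09. All these differences crossed slides. With strain, medium and slide as terms of 1 fit over the 24 arrays, which assumes an equal strain difference in both media, HO in SEF1-VP16 against WT came to −0.11 and its medium difference to −0.0045, neither called. In the same fit MFA1 (−0.88) and MFA2 (−0.999) were lower in SEF1-VP16 than in WT and met the criteria. The fit has as many terms as groups, so the values cannot test its assumption. Its strain differences come from the comparisons made on 1 slide, and the YPD arrays of SEF1-VP16 do not enter them.

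Between SEF1-VP16 and sef1, HO again led in YPD, by 1.33 ± 0.11 or 2.51-fold, and was the single call among the 8, beside 3.14% of all probes. MFA1 (0.38 ± 0.06) and STE2 (0.23 ± 0.04) were higher in SEF1-VP16 without overlap but below the minimum, so that 3 of the 8 genes were separate, against 41.3% of all probes. With slide as a term these YPD differences take the values of YPGly given next, and HO, MFA1 and MFA2 met the criteria as lower in SEF1-VP16. In YPGly, on 1 slide, the direction was the opposite for these genes. MFA2 was lower in SEF1-VP16 by −0.92 ± 0.07 (1.90-fold), HO by −0.68 ± 0.09 (1.60-fold) and MFA1 by −0.61 ± 0.09 (1.53-fold), and these 3 were called, beside 3.08% of all probes. The call of MFA1 was lost with the array median (−0.56), quantile normalization (−0.57) and normexp (−0.52), and without replicate 2 or 3 of SEF1-VP16 or replicate 1 of sef1 (−0.57, −0.56 and −0.56). STE6 (−0.53 ± 0.08), STE2 (−0.49 ± 0.06) and BAR1 (−0.23 ± 0.08) were also lower without overlap and below the minimum, which made 6 separate genes of 8, against 28.1% of all probes. AGA1 was at 0.17 ± 0.10 and AGA2 at 0.0040 ± 0.12. Both comparisons made on 1 slide set arrays of its 2 rows against each other, and the part of the row was not tested.

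**Figure D3:**
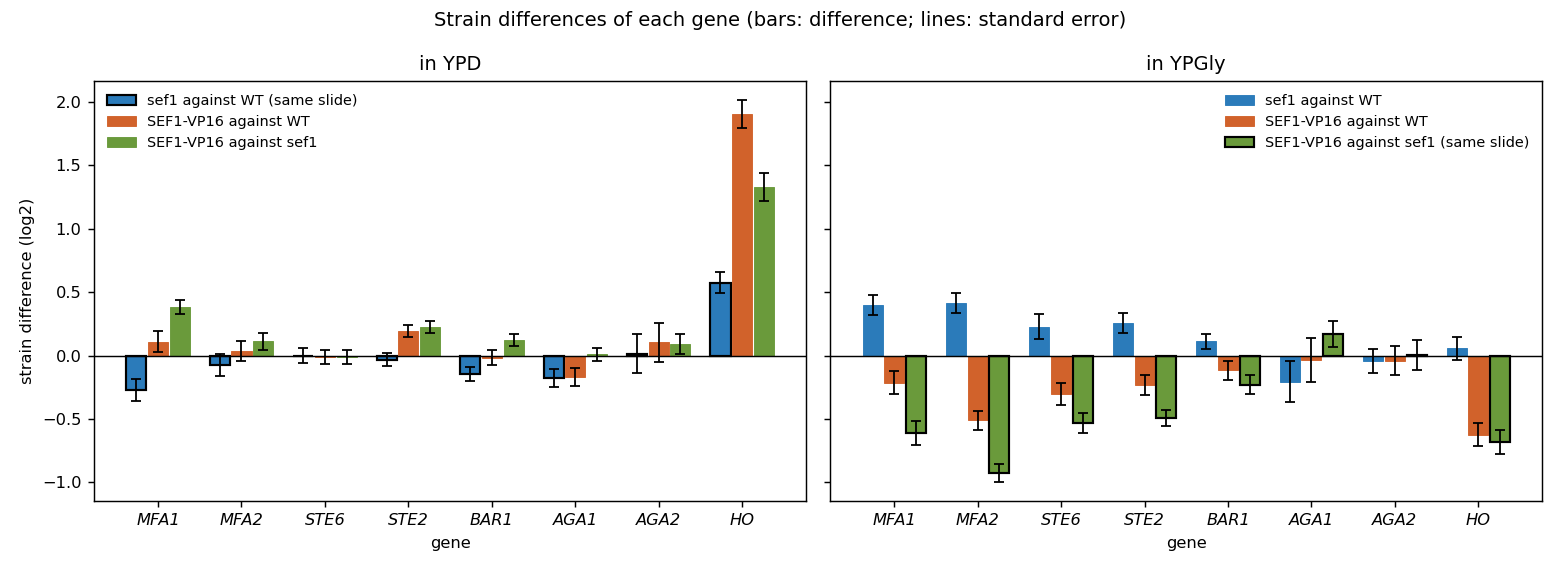
Strain differences (y axis, log2) of the 8 genes (x axis) in YPD (left) and YPGly (right), with bars for the difference, lines for its standard error (4 arrays against 4) and a black edge for the comparison made on 1 slide. In YPD HO is higher in SEF1-VP16 by 1.90 and 1.33, and in YPGly 6 of the 8 genes are lower in SEF1-VP16 than in sef1, led by MFA2 at −0.92.

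The change of a strain difference with the medium is its value in YPGly minus that in YPD. For HO it came to −2.53 ± 0.15 when SEF1-VP16 was set against WT, to −2.01 ± 0.15 against sef1, and to −0.52 ± 0.13 between sef1 and WT. For SEF1-VP16 against sef1 it was −1.04 ± 0.10 for MFA2, −0.99 ± 0.11 for MFA1, −0.72 ± 0.07 for STE2, −0.52 ± 0.09 for STE6 and −0.35 ± 0.09 for BAR1. The agglutinin genes had 0.16 ± 0.12 and −0.09 ± 0.15. In that comparison these 5 genes had the sign of HO. Between sef1 and WT they had the opposite sign to HO, at 0.67 ± 0.12 for MFA1, 0.49 ± 0.12 for MFA2, 0.29 ± 0.09 for STE2, 0.23 ± 0.12 for STE6 and 0.25 ± 0.08 for BAR1, and MFA1 exceeded HO in size. These values and the medium differences above come from the same arrays, and slide and medium cannot be told apart in them.

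Of the other genes of mating and of HO control, 77 were on the array and 71 were tested. In WT 34 of the 71 (47.9%) were called between the media, 25 higher and 9 lower in YPGly, in sef1 34 (47.9%, 22 higher, 12 lower) and in SEF1-VP16 36 (50.7%, 22 higher, 14 lower), beside 39.2%, 38.8% and 41.4% of all probes. Over all probes 1189 were higher and 1021 lower in WT, 1093 and 1095 in sef1, and 1108 and 1226 in SEF1-VP16. The tested genes of these lists had a median difference of 0.28, 0.26 and 0.13 in the 3 strains. ASG7, the a-specific gene outside the 8, which encodes an inhibitor of signalling by Ste4, fell in YPGly in WT (−1.13 ± 0.11, limma adjusted p 5.9e-06), sef1 (−1.43 ± 0.07, adjusted p 1.2e-08) and SEF1-VP16 (−0.81 ± 0.08, adjusted p 5.9e-06), and was not called with slide as a term (−0.51). SAG1 of alpha cells rose, by 0.91 ± 0.11, 0.88 ± 0.07 and 1.32 ± 0.08, and STE3 passed in no strain. ASG7 and SAG1 therefore moved in opposite directions between the media in all 3 strains.

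The enzymes that mature a-factor did not move together. STE14, the methyltransferase that acts last on the peptide's end, fell in YPGly by −1.24 ± 0.16 in WT, −1.63 ± 0.07 in sef1 and −1.65 ± 0.06 in SEF1-VP16. RCE1, the protease that trims the prenylated end, fell by −0.81 ± 0.07, −0.90 ± 0.05 and −0.88 ± 0.08. AXL1, the protease that makes the final cut and a gene of haploid cells of either type, rose by 1.09 ± 0.11, 1.09 ± 0.07 and 0.69 ± 0.06. Of the 7 genes of this list, 3, 3 and 5 were called in WT, sef1 and SEF1-VP16 (42.9%, 42.9% and 71.4%, against 39.2%, 38.8% and 41.4% of all probes). RAM1, a subunit of the farnesyltransferase, and STE23, a protease that overlaps with Axl1 in function, were called only in the last, at −0.64 and −0.68, and whether the strains differed there was not tested.

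Of the 17 genes of pheromone signalling, 6 were called in WT (3 higher, 3 lower), 7 in sef1 (3 higher, 4 lower) and 6 in SEF1-VP16 (1 higher, 5 lower), which at 35.3%, 41.2% and 35.3% was near the share of all probes. SST2, which switches the receptor's G protein off, fell by −1.61 ± 0.12, −1.58 ± 0.08 and −1.59 ± 0.06, about 3-fold in each strain. STE4, the beta subunit of that G protein and a gene of both haploid types, fell by −0.89 ± 0.08, −0.72 ± 0.07 and −1.53 ± 0.05. MSG5, a phosphatase of the pathway's kinases, rose by 0.90 ± 0.07, 0.98 ± 0.08 and 0.63 ± 0.05, and was not called with slide as a term (0.55). KSS1, a kinase shared with filamentous growth, fell in sef1 (−0.79 ± 0.10) and SEF1-VP16 (−1.03 ± 0.05) and was at −0.46 ± 0.10 in WT, under the minimum. Of the 9 tested pheromone-induced genes, 3, 5 and 4 were called in WT, sef1 and SEF1-VP16 (33.3%, 55.6% and 44.4%). The shares of all probes were 39.2%, 38.8% and 41.4%. PRM4 rose in all 3 strains (2.16 ± 0.08, 2.15 ± 0.05 and 1.72 ± 0.05). KAR4, a regulator of nuclear fusion genes, rose as well (0.91 ± 0.08, 0.64 ± 0.11 and 0.65 ± 0.06). FUS1, a cell fusion gene, fell in sef1 (−0.85 ± 0.06) and was at 0.55, not called, with slide as a term.

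**Figure D4:**
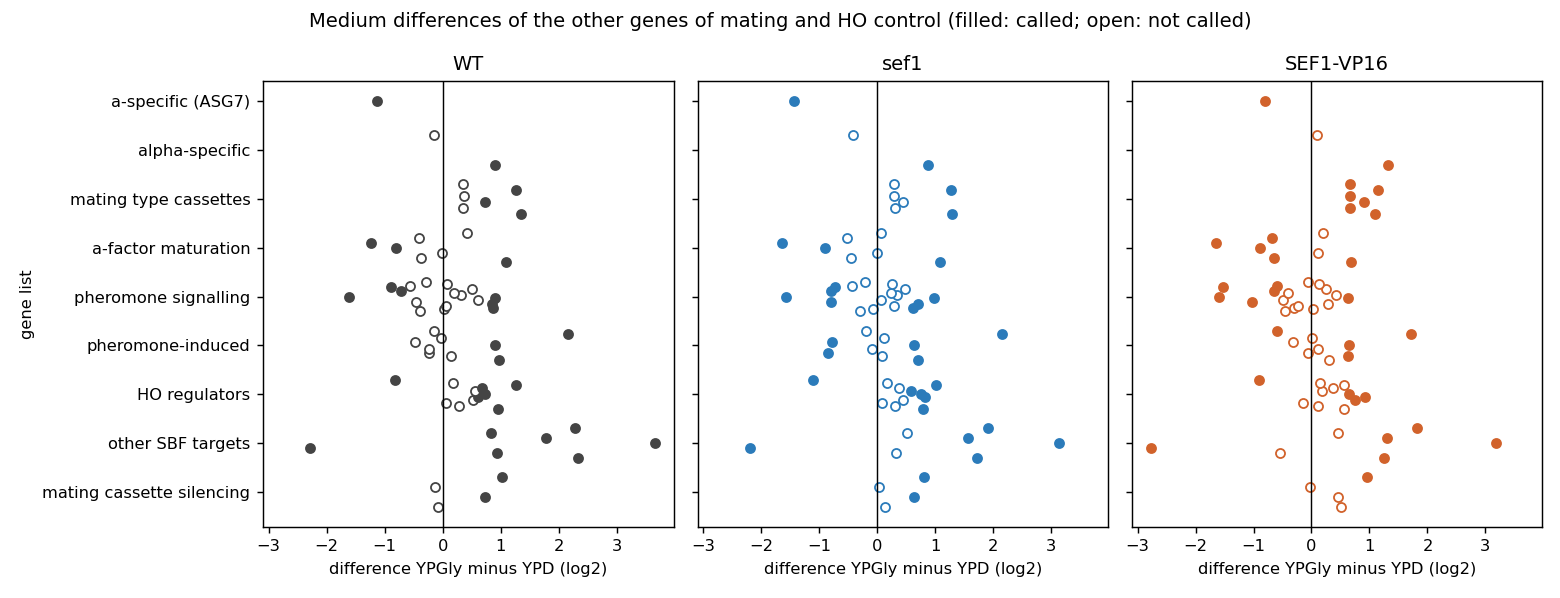
Difference between YPGly and YPD (x axis, log2) of 64 of the 71 tested genes of mating and HO control that are not among the 8, by list (y axis) and strain (panels), with filled circles for called genes. The called genes lie on both sides of 0, with 24 higher and 8 lower in WT, and the targets of SBF reach from −2.29 for MNN1 to 3.66 for PCL1 there.

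The genes that share regulators with HO were examined as SBF targets and as the regulators themselves. All 7 other SBF targets were called between the media in WT, 6 higher and 1 lower, beside 39.2% of all probes. PCL1, a cyclin of the kinase Pho85, rose by 3.66 ± 0.15 in WT, 3.15 ± 0.13 in sef1 and 3.18 ± 0.06 in SEF1-VP16. CLN1, a G1 cyclin, rose by 2.33 ± 0.08, 1.72 ± 0.09 and 1.26 ± 0.09. YOX1, a repressor of the early cell cycle, rose by 2.28 ± 0.09, 1.91 ± 0.10 and 1.83 ± 0.08. MNN1, a mannosyltransferase of the Golgi, went the other way by −2.29 ± 0.11, −2.19 ± 0.05 and −2.78 ± 0.07. In sef1 and SEF1-VP16 5 of the 7 were called (71.4% in each), beside 38.8% and 41.4% of all probes. CLN2, the other G1 cyclin, rose in WT (0.94 ± 0.13) and was under the minimum in sef1 (0.32 ± 0.07), in SEF1-VP16 (−0.55 ± 0.08) and with slide as a term (0.07).

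Among the regulators of HO, SWI5 rose in WT (1.26 ± 0.09) and sef1 (1.02 ± 0.06) and was at 0.56 ± 0.06 in SEF1-VP16, under the minimum. ASH1, the repressor of HO in daughter cells, rose in WT (0.95 ± 0.08) and sef1 (0.79 ± 0.05) and was at 0.57 ± 0.07 in SEF1-VP16, also under it. WHI5, the inhibitor of SBF, fell by −0.82 ± 0.10, −1.11 ± 0.08 and −0.90 ± 0.09. SNF2, the motor of SWI/SNF, rose by 0.61 ± 0.13, 0.82 ± 0.08 and 0.93 ± 0.09. Of the 11 regulators 6, 6 and 4 were called in WT, sef1 and SEF1-VP16 (54.5%, 54.5% and 36.4%, against 39.2%, 38.8% and 41.4% of all probes). The mating type cassettes share sequence between MAT, HML and HMR, so that signal of their probes may come from more than 1 locus. The probe for MATALPHA1 rose by 1.27 ± 0.15, 1.27 ± 0.07 and 1.15 ± 0.09, and that for HMLALPHA1 by like amounts (1.35, 1.29 and 1.09). SIR4, which silences the cassettes, rose by 1.03 ± 0.11, 0.81 ± 0.06 and 0.95 ± 0.07. Of the 6 cassette genes 3, 2 and 6 were called in WT, sef1 and SEF1-VP16, all higher (50%, 33.3% and 100%). Of the 4 silencing genes 2, 2 and 1 were called, also higher (50%, 50% and 25%). The shares of all probes are those given above for the regulators.

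Between strains few genes of these lists were called. For sef1 against WT limma called 0 of the 71 in YPD (0 with the methods' t-test) and 1 (1.41%) in YPGly, beside 0.674% and 0.798% of all probes. In YPD 20 of the 71 had an unadjusted limma p under 0.05, beside 1527 of all 5641 probes. The VP16 strain compared to WT gave 4 in YPD and 0 in YPGly (0 with the methods' t-test), and compared to sef1 2 and 1. In YPGly against WT, 1.1% of all probes were called. There 19 of the 71 had an unadjusted limma p under 0.05, beside 919 of all 5641 probes. The 4 genes are 5.63% of the 71, under the 9.15% of all probes called there, and the 2 and 1 genes against sef1 are 2.82% and 1.41%, under 3.14% and 3.08%. The genes that rose in YPD in SEF1-VP16 against WT were FAR1 (1.05 ± 0.09, limma adjusted p 2.8e-05), which encodes the cyclin-dependent kinase inhibitor of pheromone arrest, CLN2 (1.05 ± 0.11, adjusted p 7.0e-05), CLN1 (0.89 ± 0.06, adjusted p 6.6e-06) and PRM4 (0.60 ± 0.06, adjusted p 5.4e-05). Against sef1 in YPD, CLN2 (0.79 ± 0.06, adjusted p 1.1e-05) and FAR1 (0.62 ± 0.07, adjusted p 7.4e-05) rose, the latter not with the array median (0.57) or normexp (0.52), or without replicate 4 of SEF1-VP16 (0.58). PRM4 was under the minimum against WT with the array median (0.51) and quantile normalization (0.50), and without replicate 4 of WT (0.56). In YPGly none of FAR1, CLN1, CLN2 and PRM4 was called in SEF1-VP16, with FAR1 at −0.11 ± 0.11 against WT, CLN2 at −0.44 ± 0.10 and CLN1 at −0.18 ± 0.11.

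Like the HO values, these YPD differences crossed slides. With slide as a term none was called (FAR1 0.13, CLN2 0.18, CLN1 0.42 and PRM4 0.18 against WT, and FAR1 −0.30 and CLN2 −0.08 against sef1). That fit takes its strain differences from the comparisons made on 1 slide. The YPD arrays of SEF1-VP16 do not enter them, so these values cannot test the YPD differences. On the slide shared by YPD arrays of SEF1-VP16 and YPGly arrays of WT, FAR1 had group means of −2.54 and −2.72 and CLN2 of −2.42 and −2.53, whereas CLN1 had −1.12 and 0.32. In SEF1-VP16 against WT the change of the difference with the medium was called for FAR1, CLN1 and CLN2, with 10.6% of all probes called. It was −1.17 ± 0.15 for FAR1 (limma adjusted p 5.2e-05), −1.07 ± 0.13 for CLN1 (adjusted p 2.8e-05) and −1.49 ± 0.16 for CLN2 (adjusted p 1.4e-05). These genes were picked by their YPD difference, which enters that change. In sef1 against WT in YPD, on 1 slide, CLN1 (0.44 ± 0.09, adjusted p 0.026) and FAR1 (0.43 ± 0.09, adjusted p 0.027) passed the adjusted p and not the minimum, as higher in sef1.

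**Figure D5:**
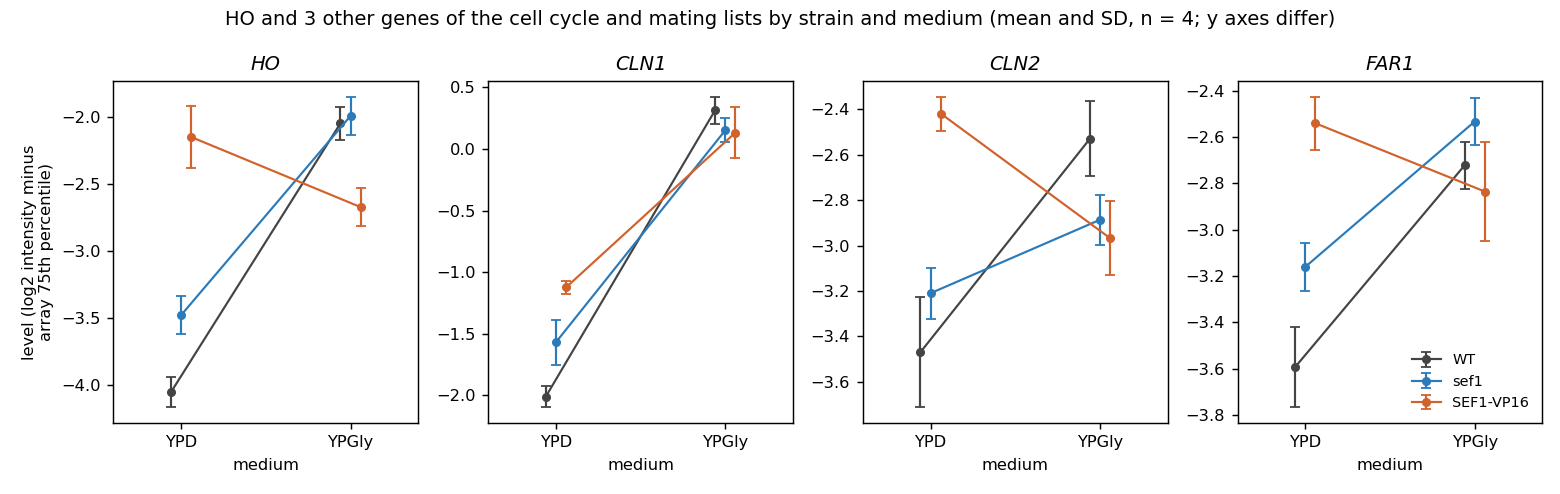
Levels of HO, CLN1, CLN2 and FAR1 (y axis, log2 intensity minus the 75th percentile of the array, scaled to each gene) in YPD and YPGly (x axis) for the 3 strains, as mean and SD of 4 arrays. In YPD the order from WT through sef1 to SEF1-VP16 is the same for the 4 genes, and in YPGly the strain means lie closer together, between −2.67 and −1.99 for HO. CLN1, CLN2 and FAR1 are genes called as higher in SEF1-VP16 than in WT in YPD, so that part of the order was set by the choice.

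The remaining calls between strains were ASG7 and FUS1. Under YPGly conditions ASG7 fell in sef1 compared to WT (−0.59 ± 0.11, limma adjusted p 0.018), at the limit of the minimum. It was not called with normexp (−0.56) or the methods' t-test, nor without replicate 3 or 4 of sef1 or replicate 1 or 3 of WT (−0.55, −0.58, −0.54 and −0.51). With slide as a term ASG7 was at −0.28, not called. That value is its difference between these strains in YPD, so it cannot test the YPGly difference. In that comparison MFA1, MFA2 and STE2 stood higher in sef1. FUS1 rose in SEF1-VP16 compared to sef1, in YPGly and on 1 slide (0.61 ± 0.08, adjusted p 0.00092), and was under the minimum with normexp (0.58) and without replicate 3 of SEF1-VP16 or replicate 3 of sef1 (0.56 and 0.57). MFA1, MFA2 and STE2 were lower in SEF1-VP16 in the same comparison.

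Over the 24 arrays the levels of MFA1, MFA2, STE2 and BAR1 ran nearly parallel, as Pearson's r shows. It is given as a description since the points share media, strains and slides. MFA1 had r of 0.988 with MFA2, 0.993 with STE2 and 0.988 with BAR1, and STE2 had 0.995 with BAR1. AGA1 and AGA2 had r of 0.922 and 0.910 with MFA1, STE6 had 0.795, and HO had −0.551. With AGA1 and AGA2, STE6 had 0.682 and 0.609. Once each group's mean was subtracted, little of this was left, with r of 0.11 between MFA1 and MFA2 and −0.05 between MFA1 and STE2, although MFA1 and AGA2 had 0.808 and MFA2 and STE2 had 0.653. The parallel course is thus mostly that of the group means.

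The tested genes most like each member over the 24 arrays were named by the highest r. For STE2 they were ARG1 (0.997), ASN1 (0.997) and MNN1 (0.996), for MFA1 STE2 (0.993), ARG1 (0.992) and SRY1 (0.991), and for MFA2 ARG1 (0.992), STE2 (0.991) and ECM3 (0.990). ARG1 encodes an enzyme of arginine synthesis and ASN1 an asparagine synthetase. BAR1 was nearest to PIS1 (0.997), OYE2 (0.996) and STE2 (0.995), AGA1 to GPC1 (0.977), ACA1 (0.972) and ARG4 (0.970), and AGA2 to SRL1 (0.953), RDS3 (0.942) and UBC12 (0.935). STE6 had its closest values with LEC1 (0.917), YCT1 (0.899) and PFK2 (0.898). HO was nearest to TYE7 (0.949), a transcription factor of glycolytic genes, TAH18 (0.944) and UTP25 (0.941).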

How the data were processed

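The authors deposited 1 scanner table per array, whose processed intensity is background-corrected green signal from Agilent Feature Extraction 10.5.1.1, and a table of log2 values, which checked as the mean log2 intensity of a probe's spots less 1 constant for each array. The processed intensity was taken to log2, 164 spots marked as outliers were left out, the 2 spots of a probe were averaged, and the array's 75th percentile was subtracted, as in the study's methods. Tested probes (5641 of 6256) had a mean intensity of 200 or more in some group. The number of arrays limits the precision.

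Groups were compared with limma 3.58.1 in R 4.3.3 over the 8 arrays of the 2 groups, or the 16 arrays of 4 groups for the change of a strain difference with the medium, with Benjamini-Hochberg adjustment over all tested probes. A probe was called at an adjusted p below 0.05 and a change of 1.5-fold. The procedure was tested on simulated data. A bound (at least N-fold) sets the brighter group's mean against the dimmer group's mean of, per array, the higher of the probe's level and the lowest level well above background. Probes were matched by systematic name. A list of 7 genes among the 71 is counted in their totals and is not reported here by itself. The members and the gene lists were chosen with earlier results of these data known. Genes named besides the members are the 3 with the highest r to each member, up to 3 called genes per list and comparison with the largest change, the alpha-specific genes and SEF1. SWI5, ASH1, YOX1, KSS1, RAM1, STE23, CLN2, FAR1 and others were followed across comparisons where another strain's call named them or after their values were seen. Alternatives were the array median, quantile normalization, normexp (offset 50, on median spot and background intensity, since mean intensity was not used here), the deposited log2 values, no minimum intensity, the methods' t-test, 1 fit of all 24 arrays, slide as a term, a replicate block and leaving out each array.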

Additional observations from a re-analysis of the deposited data

Results flagged for a closer look

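Whether a difference between strains changed with the medium drew attention for 5 of the 8 genes by the signs of single arrays, since all 4 arrays of 1 strain lay on one side of the other strain's mean in YPD and on the opposite side in YPGly. The values are the strain difference in YPGly minus that in YPD on the log2 scale. In sef1 against WT they were 0.67 for MFA1 and 0.25 for BAR1. In SEF1-VP16 against WT they were −0.43 for STE2 and −2.53 for HO. In SEF1-VP16 against sef1 they were −0.99 for MFA1, −1.04 for MFA2, −0.72 for STE2, −0.35 for BAR1 and −2.01 for HO. For these genes the difference was not tested, because they were chosen with their levels known.

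The change with the medium was tested with limma over 16 arrays for genes outside the 8 that were called between strains. They are ASG7, FAR1, PRM4, CLN1, CLN2 and FUS1. These genes were picked by strain differences that enter the change, which their adjusted p-values do not take into account. PRM4 was called in none of the 3 comparisons, and changes of the remaining list genes are not reported here. For sef1 against WT the change was −0.61 for CLN1 (limma adjusted p 0.020), −0.62 for CLN2 (adjusted p 0.049) and −0.61 for FUS1 (adjusted p 0.014). Each of these 3 was lost with quantile normalization (−0.54, −0.54 and −0.57) and without single arrays, among them replicate 3 of sef1 in YPGly (−0.59, −0.60 and −0.58). CLN1 (−0.56) and FUS1 (−0.57) were lost with normexp, and CLN2 without a minimum intensity (adjusted p 0.056). For SEF1-VP16 against WT it was −1.17 for FAR1, −1.07 for CLN1 and −1.49 for CLN2, with the largest adjusted p 5.2e-05. For SEF1-VP16 against sef1 it was 0.62 for ASG7 (adjusted p 0.00053), −0.92 for FAR1 (adjusted p 7.0e-05), −0.87 for CLN2 (adjusted p 3.2e-05) and 0.78 for FUS1 (adjusted p 1.4e-05), of which ASG7 was under the 1.5-fold minimum with normexp (0.56) and without replicate 1 of SEF1-VP16 in YPGly (0.55) or of sef1 in YPD (0.56). Of all tested probes, 0.886%, 10.6% and 8.62% were called in these 3 comparisons. Every strain changed slide between the media, so that medium and slide cannot be told apart in any of them. Among the 48 sets of 4 arrays formed by the 8 genes and 6 groups, no array stood out by Dixon's criterion.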

How the results depend on the processing

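The differences of the 8 genes under the deposited log2 values, no minimum intensity, 1 fit of all arrays and the replicate block moved by less than the spread between replicates, as did all 960 values with 1 array left out. The array median moved 16 of 96, quantile normalization 4 and normexp 18, and under these 3 no called difference changed sign. With slide as a term 41 of 72 values moved by more than that spread, and another 4, all called differences of HO, were reversed. Of these, SEF1-VP16 against WT in YPD came to −0.11, against sef1 in YPD to −0.68, and YPGly against YPD in WT and in sef1 to −0.0045 each. With the 4 of HO included, 18 of the 72 values changed sign. Calls were gained there for MFA1 (−0.88) and MFA2 (−0.999) in SEF1-VP16 against WT in both media, for MFA1 (−0.61) and MFA2 (−0.92) against sef1 in YPD, and for STE6 (−0.88) between the media in WT and sef1, and HO lost its call in SEF1-VP16 against WT in YPGly. That fit assumes equal strain differences in both media, and slide and medium cannot be told apart by it. It takes its strain differences from the comparisons made on 1 slide, so they cannot test the differences that crossed slides.

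Counts of all probes called with the methods' t-test were 20 for sef1 against WT in YPD, 17 in YPGly, and 33 for SEF1-VP16 against WT in YPGly, against 38, 45 and 62. With slide as a term SEF1-VP16 against WT gave 173 in each medium (516 and 62). Without a minimum intensity the change of sef1 against WT with the medium was called at 86 probes (50). Among the 71 other genes, sef1 against WT in YPGly gave 2 with the array median and 0 with normexp, the methods' t-test and slide as a term (1). SEF1-VP16 against WT gave 1 with slide as a term in each medium (4 and 0). SEF1-VP16 against sef1 gave 1 with the array median and with slide as a term in YPD (2), and in YPGly 2 with the array median, quantile normalization and no minimum intensity and 0 with normexp (1). No count by the methods' t-test was run for changes with the medium.

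Leaving out 1 array gave 20 to 53 probes for sef1 against WT in YPD (20, 22 and 22 without replicates 2, 3 and 4 of sef1 and 23 without replicate 1 of WT) and 28 to 77 in YPGly (without replicate 3 of sef1 and replicate 4 of WT). It gave 460 to 571 and 50 to 72 for SEF1-VP16 against WT, 165 to 204 and 165 to 194 against sef1, and 2140 to 2264, 2171 to 2234 and 2262 to 2379 for the media in WT, sef1 and SEF1-VP16. For the other genes the ranges were 0 to 0 and 0 to 2, 3 to 6 and 0 to 0, 2 to 3 and 0 to 2, and 32 to 36, 32 to 35 and 34 to 37. The changes with the medium ran from 28 to 63 for sef1 against WT (28 and 33 without replicates 3 and 2 of sef1 in YPD, 30 without its replicate 3 in YPGly), and from 528 to 660 and 445 to 547 for SEF1-VP16 against WT and against sef1.

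Replicate numbers did not pair the samples: arrays of equal number in different groups had correlations of deviations from −0.44 to 0.55 (median 0.07, 25 of 60 above 0.1, in none of 15 pairs of groups all above). With the replicate block the calls were 43, 40, 516, 67, 177 and 178 for the strain comparisons in the order above and 2212, 2188 and 2330 for the media, and the block changed no call of the 8 genes.

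The values are relative to each array's 75th percentile, so a change in total RNA is not seen.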
